A study of Mus musculus with 6 samples.

Results

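Interferon response genes were followed in lung innate lymphoid cells (ILCs) that did or did not carry the receptor KLRG1. The set comprised 43 genes chosen by symbol, each matched to its mouse Ensembl identifier in a table of 52636 genes. They were 32 genes inducible by type I interferon, 7 inducible mainly by interferon gamma, and the 4 chains of the type I and interferon gamma receptors. RNA was sequenced from 3 KLRG1-positive libraries (KLRG1-high in the sorting protocol) and 3 KLRG1-negative libraries. All mice were wild-type C57BL/6 with the 4get reporter, which places green fluorescent protein at Il4. All had received 500 ng of interleukin-33, an alarmin that activates group 2 ILCs (ILC2), into the peritoneum over 4 days and were killed on day 5, so no untreated cells enter the comparison. Cells of both groups were lineage-negative and CD90-positive, sorted to a purity stated as above 90%. Whether the 3 libraries of a group came from separate animals is not given in the labels. The p-values below therefore cover the spread among these libraries alone, and that spread may be technical.

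Interferons are secreted proteins that warn cells of infection. Type I interferons (the alpha and beta family) bind the receptor chains IFNAR1 and IFNAR2, whose kinases activate a complex containing STAT2 and IRF9; this complex binds the interferon-stimulated response element (ISRE) in promoters of antiviral genes. Interferon gamma binds IFNGR1 and IFNGR2 and acts through the gamma-activated site (GAS), inducing IRF1, guanylate-binding proteins and immunity-related GTPases. Many genes answer to both, so the division into 2 inducible groups is one of main inducer only. In mouse lung, interferons are known to restrain ILC2.

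Assigned counts ranged from 17323004 to 23946073 per library. Klrg1 itself, which checks the sort, stood at 1485, 1786 and 1327 CPM (counts scaled to a common library size with TMM factors) in KLRG1-positive libraries, against 13.1, 193 and 73.2 CPM in KLRG1-negative libraries (log2 fold change 4.04 ± 0.93 SE, adjusted p = 0.0939 by edgeR, 1.4e-05 by DESeq2). The 6 ILC2 markers were present in both groups and summed to 5479 to 6921 CPM in KLRG1-positive libraries, against 1344 to 3206 CPM in KLRG1-negative libraries (edgeR called 0 of the 6 higher, the unadjusted p was under 0.05 for 2, and DESeq2 called 2). Markers of several other cells moved with the sort, though not every marker of each list. The 6 fibroblast markers summed to 4.66 to 26.8 CPM in KLRG1-positive libraries, against 3849 to 10773 CPM in KLRG1-negative libraries, and 5 of them were lower at an adjusted p under 0.05. The 6 T cell markers summed to 304 to 369 CPM in KLRG1-positive libraries, against 984 to 3903 CPM in KLRG1-negative libraries. Cd3g, whose groups overlapped, made most of the sums of KLRG1-positive libraries 2 and 3 (313 and 249 CPM). The other 5 had separate groups, and 1 of the 6 was lower past that threshold. With the replicate number as a block these calls numbered 1 fibroblast and 3 T cell markers. Without KLRG1-positive library 2 or 3 or KLRG1-negative library 3 both were 0, without KLRG1-negative library 2 they were 1 and 0, and without KLRG1-negative library 1 they were 5 and 0. The 6 B cell markers summed to 121 to 350 CPM in KLRG1-positive libraries, against 526 to 4192 CPM in KLRG1-negative libraries; edgeR called 0 of them, all 6 had an unadjusted p under 0.05, and DESeq2 called 4. NK and ILC1 markers summed to 116 to 406 CPM in KLRG1-positive libraries, against 459 to 1414 CPM in KLRG1-negative libraries. Nkg7 made most of the KLRG1-negative sums (1157, 662 and 360 CPM). Gzma had a higher mean in KLRG1-positive libraries. It stood at 122, 19.5 and 83.9 CPM there, against 62.2, 61.5 and 38.6 CPM in KLRG1-negative libraries, with overlapping groups. The groups of Ncr1 and Klrb1c also overlapped. Macrophage and monocyte markers, among them Ly6c2, which is also interferon-inducible, summed to 42.7 to 119 CPM in KLRG1-positive libraries, against 136 to 507 CPM in KLRG1-negative libraries. Ly6c2 made most of the KLRG1-negative sums (400, 124 and 91.8 CPM). Only Ly6c2 and Cd68 had separate groups. Csf1r, Adgre1 and Marco averaged 13.5, 38.8 and 0.551 CPM in KLRG1-positive libraries, against 16.5, 40.6 and 0.464 CPM in KLRG1-negative libraries. Their groups overlapped, as did those of Mertk. Plasmacytoid dendritic cell markers summed to 49.0 to 135 CPM in KLRG1-positive libraries, against 140 to 562 CPM in KLRG1-negative libraries. Tcf4, Bcl11a and Spib made most of the KLRG1-negative sums, and all were highest in KLRG1-negative library 3, as were the B cell markers. Ccr9 went the other way, averaging 48.3 CPM in KLRG1-positive libraries, against 31.2 CPM in KLRG1-negative libraries, with overlapping groups. In the last 3 lists edgeR called 0 genes; 3 NK and ILC1, 2 macrophage and monocyte and 3 plasmacytoid dendritic markers had an unadjusted p under 0.05, and DESeq2 called 3, 1 and 3. Of the defining plasmacytoid dendritic genes, Siglech had 0, 2 and 0 counts in KLRG1-positive libraries, against 95, 89 and 0 in KLRG1-negative libraries. Klk1 had 0 counts over the KLRG1-positive libraries, against 8, 0 and 36 in KLRG1-negative libraries. The neutrophil gene Ly6g had 0 counts over the KLRG1-positive libraries, against 2, 0 and 1 in KLRG1-negative libraries. None of the T cell, B cell, fibroblast, macrophage or NK markers was at 0 throughout a group. Interferon-inducible genes can be expressed by any of these cell types, and the part of the other cells in the differences below was not tested. In sorted bulk RNA, fewer cells of a type and less RNA per cell cannot be told apart.

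Most of the 43 genes stood lower in KLRG1-positive than in KLRG1-negative libraries, and 1 of them passed the test. All 43 had enough counts to be tested. In 39 the log2 fold change was negative, where 53.5% of all 15197 tested genes were negative, and the median was -0.85, against -0.05 over all tested genes. The only member past an adjusted p of 0.05 (edgeR quasi-likelihood test, Benjamini-Hochberg over all tested genes) was the oligoadenylate synthetase-like gene Oasl2, which fell; by the same rule 1.21% of tested genes were lower and 0.125% higher. With the replicate number as a block 0 members passed, and 0.349% of all genes were lower. DESeq2 called 14 members lower and 0 higher, where it called 9.06% of all tested genes lower and 2.28% higher. The unadjusted p was under 0.05 for 17 members, all lower in KLRG1-positive cells, beside 11.5% of all tested genes lower and 4.19% higher. Without KLRG1-positive library 3 the 17 became 9, and without both libraries numbered 1, 2 or 3 they became 10, 11 and 7. The 2 groups of libraries did not overlap for 17 members, all lower in KLRG1-positive cells, where 15.2% of tested genes were lower in this sense and 9.46% higher. That count was 26 without KLRG1-positive library 1 and 27 without KLRG1-negative library 2.

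**Figure D1:**
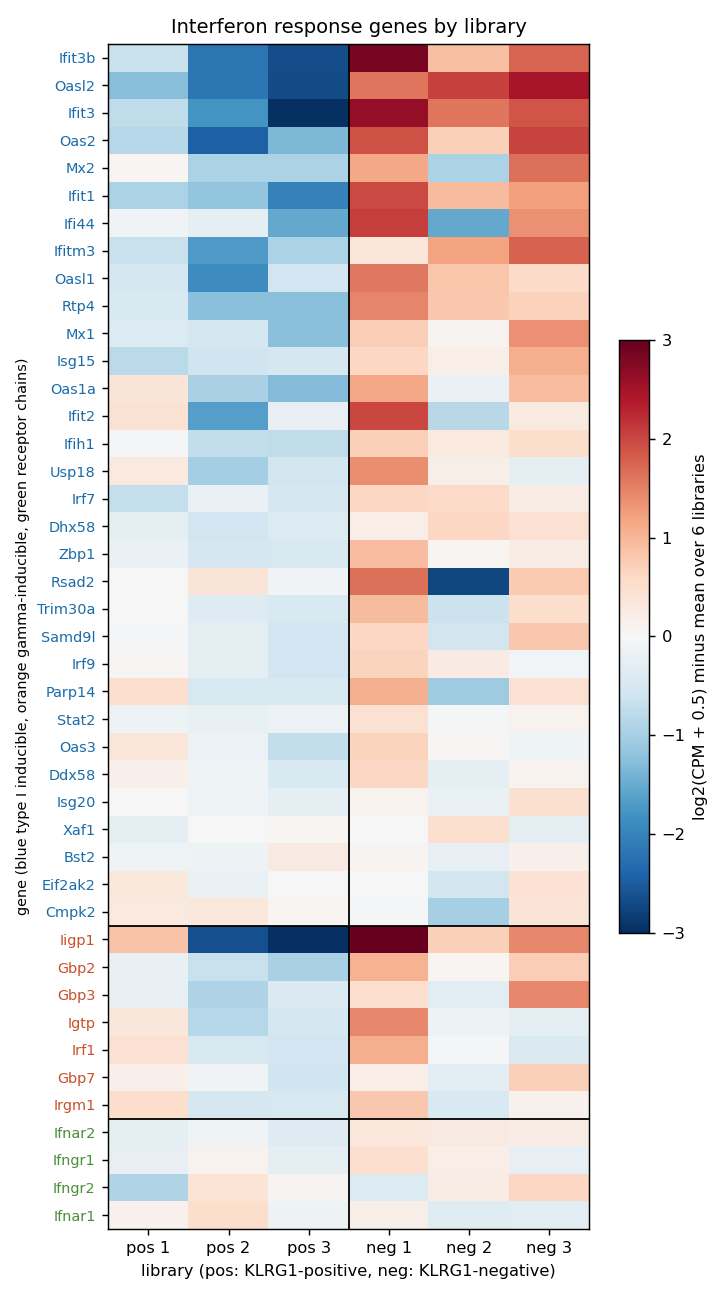
Level of each of the 43 genes in each library, as log2(CPM + 0.5) minus that gene's mean over the 6 libraries, with KLRG1-positive libraries left of KLRG1-negative ones. Genes are grouped by list and sorted by fold change. Ifit3b, Oasl2, Ifit3 and Ifit1 are blue in all KLRG1-positive columns and red in all KLRG1-negative columns, while Bst2 and Xaf1 are pale throughout.

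Most of the inducible genes with a known promoter carried the ISRE core there. Members were chosen by symbol and not by this motif. They were chosen as interferon-inducible genes, however, so a high share is not an independent finding. RefSeq promoters (GRCm38.p6, 250 bases before to 50 after the start, 300 bases in all) were found for 34 of the 43 genes. The ISRE core (GAAA, any 2 bases, GAAA), searched on both strands with overlapping matches counted, was present in 14 of 24 type I inducible genes and 5 of 6 gamma-inducible genes with a promoter, in 0 of 4 receptor genes, and in 3.99% of 27025 genes. The GAS motif TTCNNNGAA, which reads the same on both strands, was present in 6 of 24 type I inducible genes, 3 of 6 gamma-inducible genes and 2 of 4 receptor genes, against 9.55% of 27025 genes. The stretches below lie before the start, 5′ to 3′ on the gene's strand, with every ISRE core and GAS match in capitals. Ifit1, Ifit3, Ifit3b and Isg15 are shown as genes with much lower KLRG1-positive levels, Igtp as a gamma-inducible gene with both motifs, and Bst2 as a gene with equal group means.
Ifit1: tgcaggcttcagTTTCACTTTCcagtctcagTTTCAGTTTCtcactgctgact
Ifit3: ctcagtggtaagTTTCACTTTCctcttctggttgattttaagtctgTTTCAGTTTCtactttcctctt
Ifit3b: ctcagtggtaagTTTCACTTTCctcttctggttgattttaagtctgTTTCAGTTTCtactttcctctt
Isg15: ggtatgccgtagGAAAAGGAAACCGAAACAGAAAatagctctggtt
Igtp: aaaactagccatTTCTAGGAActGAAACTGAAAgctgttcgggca
Bst2: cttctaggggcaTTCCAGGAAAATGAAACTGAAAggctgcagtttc

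These stretches lie at chr19:34640773-34640825 (Ifit1, plus strand), chr19:34583361-34583428 (Ifit3, plus), chr19:34607757-34607824 (Ifit3b, plus), chr4:156200863-156200908 (Isg15, minus), chr11:58199499-58199543 (Igtp, plus) and chr8:71537575-71537620 (Bst2, minus). Ifit1, Ifit3 and Ifit3b carry the ISRE core on the opposite strand (TTTC, any 2 bases, TTTC) in 2 separate copies. The printed letters of Ifit3 and Ifit3b are the same. Ifit2, which is not printed, had 0 ISRE cores in its promoter windows. In Isg15 the capitals hold 3 overlapping ISRE cores. In Bst2 they hold 2 overlapping ISRE cores, the first of which also overlaps the GAS match. Genes with and without the motif were found at both ends of the range. Members with an ISRE core had a median log2 fold change of -0.82 over 19 genes, 8 of them at an unadjusted p under 0.05. Those without had -0.54 over 15 genes, 4 of them at that p. The 15 included all 4 receptor chains, whose own median was -0.28, so these sets differ in list as well as in motif. Members with a GAS match had a median of -0.48 over 11 genes, 2 of them at that p, and those without had -0.70 over 23 genes, 10 of them at that p. Bst2 with 2 ISRE cores had a log2 fold change of 0.00 and Oasl2 with none in this window had -4.27. A match is a description of the letters and not evidence of binding.

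The receptor chains were expressed in both populations. Per gene length, Ifngr1, the ligand-binding chain of the interferon gamma receptor, had the highest level of all 43 genes, at 177 ± 27.8 RPKM (CPM per kilobase of exon) in KLRG1-positive and 222 ± 56.3 RPKM in KLRG1-negative libraries (SD, n = 3 each). Among the receptor chains, Ifnar1, the signalling chain for type I interferon, followed at 49.6 ± 11.9 RPKM in KLRG1-positive and 39.3 ± 8.32 RPKM in KLRG1-negative libraries. Ifnar2, the high-affinity type I chain, came next at 24.2 ± 2.31 RPKM in KLRG1-positive and 35.1 ± 0.956 RPKM in KLRG1-negative libraries. Ifngr2, the signalling chain for interferon gamma, was lowest at 18.4 ± 7.72 RPKM in KLRG1-positive and 21.7 ± 7.43 RPKM in KLRG1-negative libraries. In KLRG1-negative libraries Ifnar1 and Ifnar2 did not differ beyond their spread, and in KLRG1-positive libraries Ifnar2 and Ifngr2 did not.

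Of the 4 chains, Ifnar2 was the 1 whose groups were separate, beside 15.2% of all tested genes that were lower in this sense. It stood at 79.2, 88.8 and 73.6 CPM in KLRG1-positive libraries and at 120, 117 and 114 CPM in KLRG1-negative libraries, so every KLRG1-positive value was lower (log2 fold change -0.54 ± 0.17 SE, adjusted p = 0.187 by edgeR, 0.0394 by DESeq2). Ifnar1 stood at 280, 367 and 228 CPM in KLRG1-positive libraries and at 287, 199 and 206 CPM in KLRG1-negative libraries, and the groups overlapped (0.34 ± 0.25, adjusted p = 0.624). Both chains are needed for one receptor, and their fold changes had opposite signs, neither past the threshold in the edgeR test. Ifngr1 stood at 464, 594 and 450 CPM in KLRG1-positive libraries, against 790, 634 and 469 CPM in KLRG1-negative libraries (-0.33 ± 0.24, adjusted p = 0.62). Ifngr2 stood at 33.1, 83.3 and 66.9 CPM in KLRG1-positive libraries, against 46.8, 73.1 and 96.0 CPM in KLRG1-negative libraries (-0.24 ± 0.42, adjusted p = 0.877), with library 1 the lowest of each group. The sign for Ifngr2 turned, to 0.08 and 0.04, without KLRG1-positive library 1 or KLRG1-negative library 3.

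Transcription factors of the type I response had log2 fold changes between -0.94 and -0.38. Irf7, an amplifier of interferon production that is itself inducible, stood at 61.1, 88.6 and 71.2 CPM in KLRG1-positive libraries and at 156, 151 and 117 CPM in KLRG1-negative libraries. The groups were separate, with means of 73.6 ± 13.9 CPM in KLRG1-positive libraries, against 141 ± 20.9 CPM in KLRG1-negative libraries (-0.94 ± 0.22 SE, adjusted p = 0.0986). Stat2 stood at 77.0, 73.3 and 74.6 CPM in KLRG1-positive libraries and at 117, 83.3 and 91.7 CPM in KLRG1-negative libraries, separate by a narrow margin (-0.38 ± 0.20, adjusted p = 0.449). Irf9, the DNA-binding partner of STAT2, averaged 105 ± 22.9 CPM in KLRG1-positive libraries, against 155 ± 41.7 CPM in KLRG1-negative libraries, with overlapping groups (-0.57 ± 0.27, adjusted p = 0.4). None of the 3 passed (edgeR; Irf7 alone had an unadjusted p under 0.05, and DESeq2 called Irf7 alone).

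Oasl2 was the member that passed the test. Oasl2, an oligoadenylate synthetase-like protein on chromosome 5 (GRCm38, 114896936 to 114912234), stood at 3.94, 1.92 and 1.20 CPM in KLRG1-positive libraries and at 32.5, 44.1 and 59.3 CPM in KLRG1-negative libraries. The highest KLRG1-positive value was far below the lowest KLRG1-negative one, and the means differed 19.3-fold (-4.27 ± 0.57 SE, adjusted p = 0.038). The call was lost with the replicate number as a block (adjusted p = 0.0898) and without KLRG1-positive library 2 or 3 or KLRG1-negative library 1, 2 or 3 (0.159, 0.129, 0.0643, 0.103 and 0.115), while the log2 fold change stayed between -5.03 and -3.62 in all fits with libraries left out. Its KLRG1-negative libraries had the same order (3, then 2, then 1) as the summed fibroblast markers and the summed B cell markers. The part of these cells was not tested, and how many of all tested genes had this order was not counted.

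Ifit proteins bind foreign RNA and block its translation, and their genes lie side by side on chromosome 19. Ifit1 (34640871 to 34650009) stood at 7.15, 5.98 and 3.15 CPM in KLRG1-positive libraries and at 57.6, 28.2 and 34.3 CPM in KLRG1-negative libraries (-2.88 ± 0.47 SE, adjusted p = 0.0517). Ifit3, an adaptor that stabilises IFIT1 in human cells, stood at 4.73, 2.08 and 0.266 CPM in KLRG1-positive libraries and at 54.7, 26.5 and 32.3 CPM in KLRG1-negative libraries (-4.01 ± 0.99, adjusted p = 0.11). Ifit3b, its close copy, stood at 1.86, 0.320 and 0.0888 CPM in KLRG1-positive libraries and at 26.1, 6.47 and 12.1 CPM in KLRG1-negative libraries (-4.30 ± 1.22, adjusted p = 0.151). All 3 genes had separate groups and in all 3 library 1 was the highest of each group. Ifit2 was the exception in the cluster: it stood at 18.7, 3.90 and 11.3 CPM in KLRG1-positive libraries, against 55.0, 7.25 and 16.2 CPM in KLRG1-negative libraries, and the groups overlapped (-1.21 ± 0.88, adjusted p = 0.617). Levels of Ifit3 and Ifit3b are uncertain and understated, because reads that map to several places were left out of the counts. Of the stretches of 50 bases in Ifit3 transcripts, 51.2% also occur in Ifit3b.

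**Figure D2:**
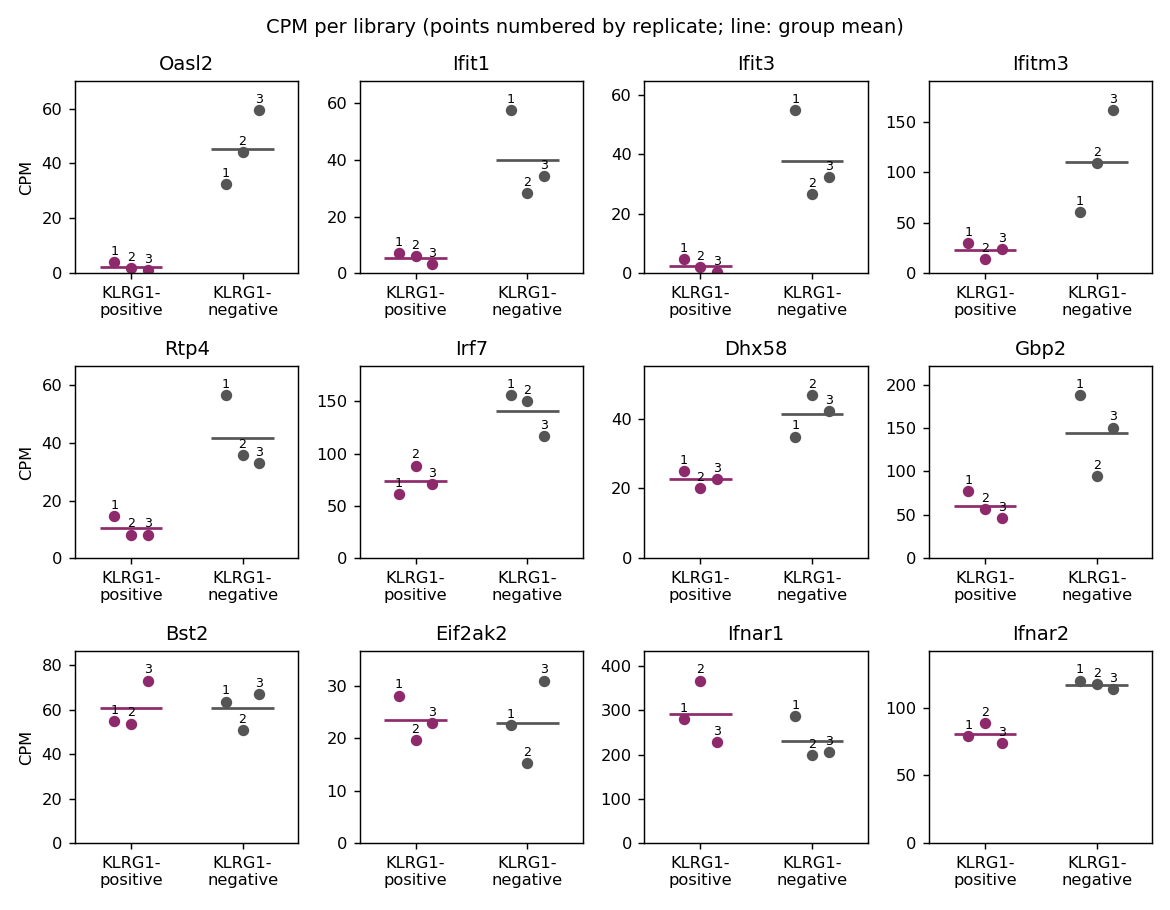
CPM of 12 interferon response genes in every library, on linear axes that start at 0, with KLRG1-positive libraries left of KLRG1-negative ones. Points are numbered by replicate and lines mark group means. The groups are separate in the upper 8 panels and in Ifnar2, and they overlap in Bst2, Eif2ak2 and Ifnar1.

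Oligoadenylate synthetases, which activate RNase L when they bind double-stranded RNA, differed widely among themselves. Oas2 stood at 1.01, 0 and 0.577 CPM in KLRG1-positive libraries and at 9.79, 3.98 and 10.7 CPM in KLRG1-negative libraries, which are separate groups (-3.93 ± 1.31 SE, adjusted p = 0.213). The KLRG1-positive level of Oas2 rests on 18, 0 and 13 counts. Oasl1, which in mice restrains Irf7 translation, stood at 2.48, 0.641 and 2.35 CPM in KLRG1-positive libraries, against 12.3, 7.06 and 5.81 CPM in KLRG1-negative libraries (-2.20 ± 0.69, adjusted p = 0.19). Oas3, by contrast, had means of 36.2 ± 13.7 CPM in KLRG1-positive libraries, against 46.4 ± 14.3 CPM in KLRG1-negative libraries (-0.36 ± 0.37, adjusted p = 0.758). Oas1a had a log2 fold change of -1.25 ± 0.68 with overlapping groups (adjusted p = 0.469), and its level is uncertain, since 57.6% of the 50-base stretches of its transcripts also occur in Oas1g.

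Ifitm3, Rtp4, Mx1 and Isg15 also had separate groups. Ifitm3 (chromosome 7, 141009586 to 141010770), a membrane protein that blocks entry of enveloped viruses, stood at 29.4, 14.2 and 24.1 CPM in KLRG1-positive libraries and at 60.4, 109 and 161 CPM in KLRG1-negative libraries (-2.29 ± 0.46 SE, adjusted p = 0.0716). Per gene length it ranked second of the 43 genes over all 6 libraries, at 33.3 ± 11.4 RPKM in KLRG1-positive libraries, against 162 ± 74.4 RPKM in KLRG1-negative libraries. Over the KLRG1-positive libraries alone, Ifngr1, Bst2, Ifnar1, Igtp, Gbp7 and Irf1 had higher means. Ifitm3 is also known to be expressed without interferon in many cells, fibroblasts among them. Here its KLRG1-negative libraries also had the order of the summed fibroblast and B cell markers. Among the other members, only Ifngr2 and Oasl2 had that order. Whether fibroblasts or B cells had a part in the Ifitm3 difference was not tested. How many of all tested genes had this order was not counted. Rtp4 (chromosome 16, 23520291 to 23614222), a chaperone for receptor transport, stood at 14.7, 8.22 and 8.21 CPM in KLRG1-positive libraries, against 56.4, 35.7 and 33.0 CPM in KLRG1-negative libraries (-2.01 ± 0.39, adjusted p = 0.0677). Mx1, a dynamin-like antiviral GTPase whose gene is known to be defective in C57BL/6 mice, stood at 6.08, 5.55 and 3.15 CPM in KLRG1-positive libraries, against 14.1, 8.75 and 22.2 CPM in KLRG1-negative libraries (-1.61 ± 0.51, adjusted p = 0.193). Isg15, a ubiquitin-like modifier, stood at 3.38, 3.95 and 4.31 CPM in KLRG1-positive libraries and at 9.85, 7.25 and 14.0 CPM in KLRG1-negative libraries (-1.42 ± 0.44, adjusted p = 0.185). Its deconjugating enzyme Usp18, which also dampens signalling at IFNAR2, had overlapping groups, at 21.1 ± 10.1 CPM in KLRG1-positive libraries, against 40.8 ± 26.3 CPM in KLRG1-negative libraries (-0.95 ± 0.57, adjusted p = 0.511).

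The RIG-I-like receptors and Zbp1 sense foreign nucleic acid, as does Eif2ak2, given below with the genes that differed little. Dhx58, which encodes the RIG-I-like regulator LGP2, stood at 24.9, 20.2 and 22.7 CPM in KLRG1-positive libraries and at 34.8, 46.6 and 42.1 CPM in KLRG1-negative libraries (-0.87 ± 0.24 SE, adjusted p = 0.145). Zbp1, a sensor of left-handed nucleic acid that can trigger necroptosis, stood at 57.3, 46.2 and 47.4 CPM in KLRG1-positive libraries, against 126, 69.4 and 76.9 CPM in KLRG1-negative libraries (-0.85 ± 0.29, adjusted p = 0.215). Ifih1, which encodes MDA5, stood at 12.1, 7.16 and 7.10 CPM in KLRG1-positive libraries, against 20.7, 15.3 and 18.0 CPM in KLRG1-negative libraries (-1.03 ± 0.38, adjusted p = 0.251). Ddx58, which encodes RIG-I, averaged 113 ± 24.0 CPM in KLRG1-positive libraries, against 142 ± 44.5 CPM in KLRG1-negative libraries, with overlapping groups (-0.33 ± 0.29, adjusted p = 0.697).

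Several type I inducible genes had small differences between the populations relative to their spread. Bst2, or tetherin, which holds budding virions at the cell surface, stood at 54.8, 53.7 and 73.0 CPM in KLRG1-positive libraries and at 63.5, 50.8 and 67.1 CPM in KLRG1-negative libraries (0.00 ± 0.23 SE, adjusted p = 1). Eif2ak2, the kinase PKR that senses double-stranded RNA and halts translation, had means of 23.5 ± 4.29 CPM in KLRG1-positive libraries, against 22.9 ± 7.82 CPM in KLRG1-negative libraries (0.04 ± 0.35, adjusted p = 0.982). Cmpk2, a mitochondrial nucleotide kinase, had the most positive log2 fold change of the type I inducible genes, with means of 72.4 ± 6.84 CPM in KLRG1-positive libraries, against 57.1 ± 25.2 CPM in KLRG1-negative libraries (0.34 ± 0.36, adjusted p = 0.761). Its neighbour Rsad2, or viperin, with which it is induced in other cells, stood at 3.60, 4.86 and 3.28 CPM in KLRG1-positive libraries. In KLRG1-negative libraries Rsad2 stood at 12.4, 0.118 and 6.58 CPM, a spread that contained the whole KLRG1-positive range (-0.70 ± 1.26, adjusted p = 0.877). The exonuclease gene Isg20 and the XIAP-binding gene Xaf1 had log2 fold changes of -0.29 ± 0.27 and -0.16 ± 0.28. Parp14, Trim30a and Samd9l had log2 fold changes of -0.47, -0.69 and -0.68 with overlapping groups, and in all 3 library 2 was the lowest of the KLRG1-negative libraries. Mx2 and Ifi44 were near the limit of detection, with 9, 0 and 0 counts of Mx2 in KLRG1-positive libraries, against 30, 0 and 53 in KLRG1-negative libraries. Ifi44 had 15, 13 and 0 counts in KLRG1-positive libraries, against 100, 0 and 67 in KLRG1-negative libraries.

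**Figure D3:**
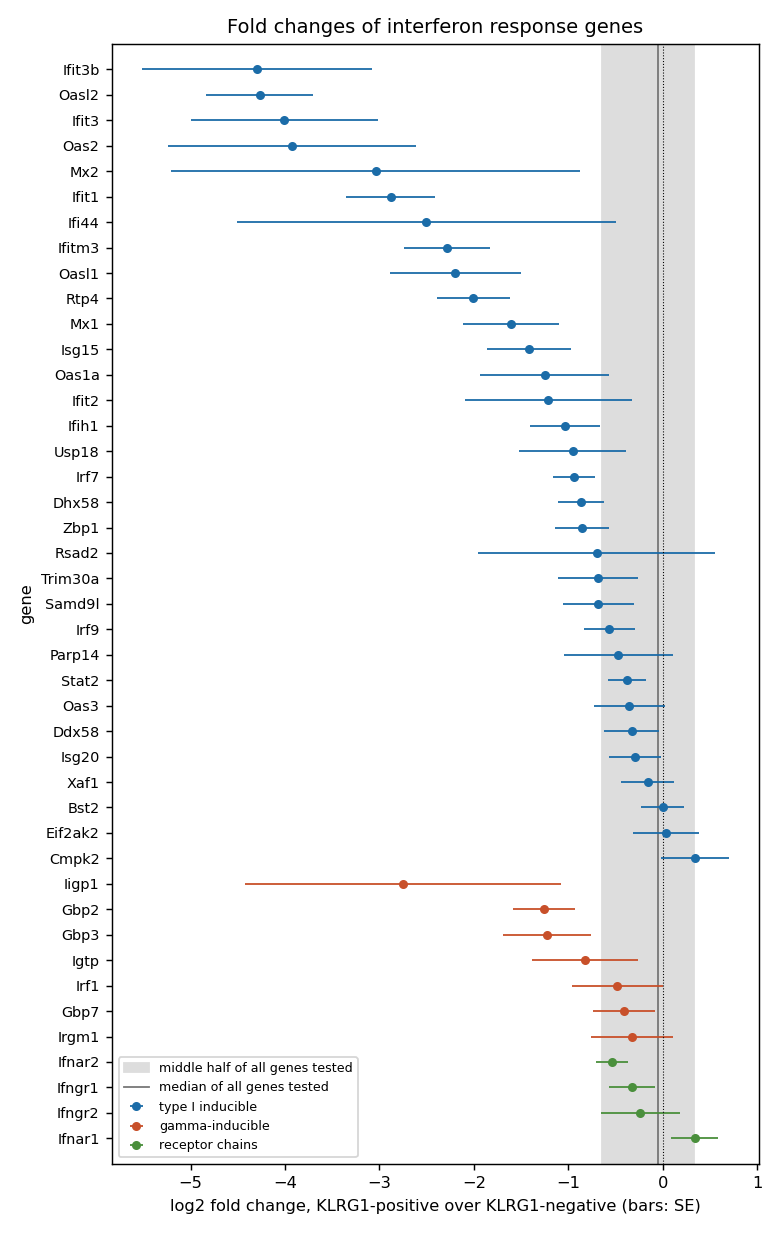
Log2 fold change of each gene, KLRG1-positive over KLRG1-negative, with SE bars, grouped by list. The grey band spans the middle 50% of all tested genes (-0.65 to 0.33) and the grey line is their median (-0.05). Type I inducible genes reach from -4.30 for Ifit3b to 0.34 for Cmpk2, gamma-inducible genes from -2.75 to -0.33 and receptor chains from -0.54 to 0.34.

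The gamma-inducible genes also had lower means in KLRG1-positive cells. All 7 had negative log2 fold changes, with a median of -0.82, against -0.95 for the 32 type I inducible genes; this difference between the lists was not tested. EdgeR called 0 of the 7. The unadjusted p was under 0.05 for 2 of them, both lower in KLRG1-positive cells, beside 11.5% of all tested genes lower. DESeq2 called 1, Gbp2, where it called 9.06% of all tested genes lower. In same-numbered pairs, all but Gbp7 were lower in KLRG1-positive cells in all 3 pairs (6 of 7, beside 25.1% of all tested genes). With the replicate number as a block edgeR still called 0, while DESeq2 called 3, Gbp2, Gbp3 and Iigp1, where it called 11.2% of all tested genes lower and 4.01% higher. Without KLRG1-negative library 1 the median was -0.43, and without KLRG1-positive library 1 it was -1.24. Gbp2 (chromosome 3, 142620602 to 142638008), a guanylate-binding protein that attacks vacuoles holding pathogens, was the 1 gene with separate groups. That is 14.3% of the list, no more than the 15.2% of all tested genes that were lower in this sense. Gbp2 stood at 77.5, 57.0 and 45.9 CPM in KLRG1-positive libraries and 187, 94.7 and 150 CPM in KLRG1-negative libraries (-1.26 ± 0.33 SE, adjusted p = 0.125). Gbp3 stood at 65.6, 41.0 and 57.4 CPM in KLRG1-positive libraries, against 111, 61.8 and 211 CPM in KLRG1-negative libraries, and overlapped narrowly (-1.23 ± 0.47, adjusted p = 0.279, and 0.0246 by DESeq2 with the block). Gbp7, which lies next to Gbp3 on chromosome 3, stood at 285, 238 and 169 CPM in KLRG1-positive libraries and at 295, 204 and 422 CPM in KLRG1-negative libraries, with wide overlap (-0.41 ± 0.33, adjusted p = 0.654). The sign for Gbp7 turned, to 0.15, without both libraries numbered 3.

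Irf1 and the immunity-related GTPases had overlapping groups and differed with the library number. Irf1, a transcription factor that drives many gamma-inducible genes, stood at 238, 125 and 116 CPM in KLRG1-positive libraries and at 371, 169 and 130 CPM in KLRG1-negative libraries (-0.48 ± 0.48 SE, adjusted p = 0.739). Without KLRG1-negative library 1 its log2 fold change was 0.11. Igtp, a GTPase that guards vacuoles, stood at 144, 62.5 and 78.7 CPM in KLRG1-positive libraries, against 307, 103 and 94.7 CPM in KLRG1-negative libraries (-0.82 ± 0.56, adjusted p = 0.587). Irgm1, a regulator of the other GTPases, averaged 98.7 ± 43.5 CPM in KLRG1-positive libraries, against 124 ± 54.6 CPM in KLRG1-negative libraries (-0.33 ± 0.43, adjusted p = 0.82). Iigp1, an effector GTPase, had 178, 8 and 1 counts in KLRG1-positive libraries, against 833, 227 and 318 counts in KLRG1-negative libraries (-2.75 ± 1.67, adjusted p = 0.524). With the block its log2 fold change was -4.39 (adjusted p = 0.195 by edgeR, 6.4e-05 by DESeq2). In all 4 genes library 1 was the highest of both groups.

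That pattern was common among the 43 genes. Library 1 was the highest of its group in both populations for 22 of them, 17 type I inducible and 5 gamma-inducible, and for 16.7% of all tested genes. Summed over the list, gamma-inducible genes reached 970, 598 and 541 CPM in KLRG1-positive libraries 1, 2 and 3, and 1501, 716 and 1137 CPM in KLRG1-negative libraries 1, 2 and 3. Type I inducible genes summed to 1187, 971 and 906 CPM in KLRG1-positive libraries and to 2072, 1313 and 1748 CPM in KLRG1-negative libraries. KLRG1-positive library 1 thus stood above KLRG1-negative library 2 in gamma-inducible genes. Within same-numbered pairs, 28 of the 43 genes were lower in KLRG1-positive cells in all 3 pairs and 0 were higher in all 3, where 25.1% of tested genes were lower and 21.7% higher. Markers of some other cells also peaked in library 1 of both groups: 6 of 6 endothelial, 5 of 6 T cell and 5 of 6 NK and ILC1 markers did. Most other lists did not share this, with 0 of 6 fibroblast, 0 of 6 B cell and 0 of 6 ILC2 markers. It held for 1 of 6 plasmacytoid dendritic, 2 of 6 macrophage and monocyte and 2 of 6 epithelial markers. Endothelial markers summed to 282, 158 and 95.7 CPM in KLRG1-positive libraries and to 465, 127 and 237 CPM in KLRG1-negative libraries. The part of these markers in the pattern was not tested.

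**Figure D4:**
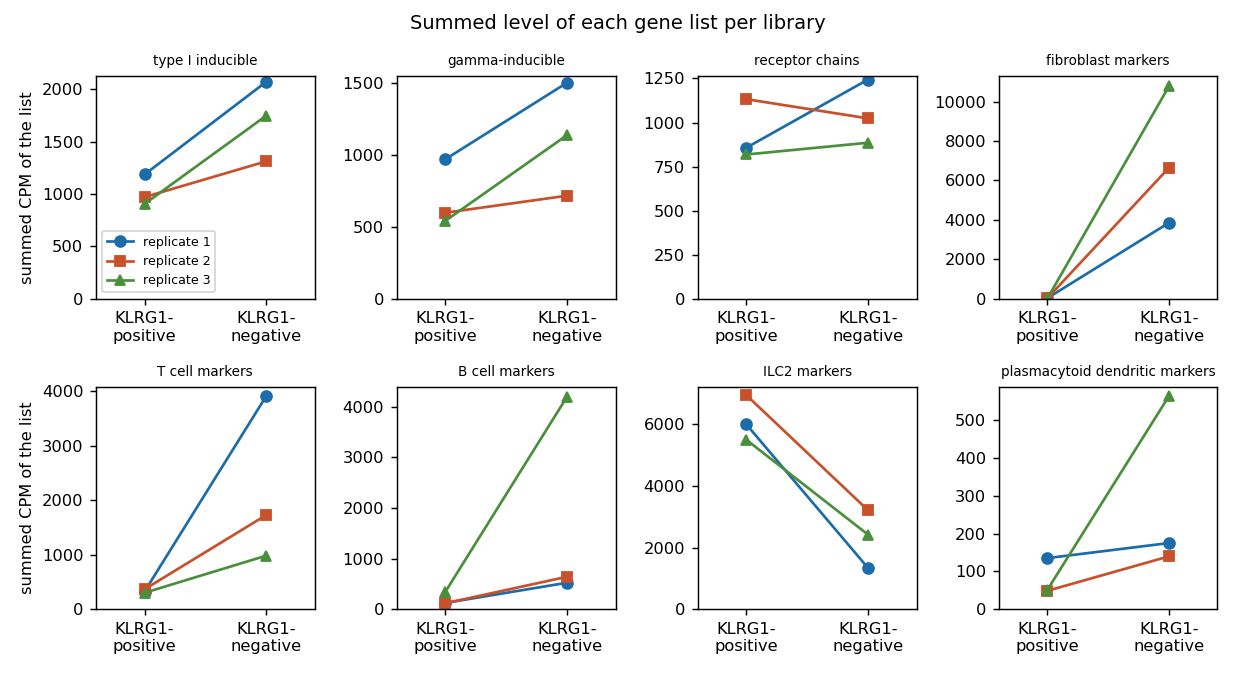
Summed CPM of the 3 lists of interferon response genes and of 5 marker lists in each library, on linear axes from 0, with lines joining libraries of the same replicate number. Type I inducible genes sum to 906 to 1187 CPM in KLRG1-positive libraries, against 1313 to 2072 CPM in KLRG1-negative libraries. Fibroblast, T cell and B cell markers are higher in KLRG1-negative libraries and ILC2 markers are lower there.

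Genes of the pathway outside the set were read from a wider list of 105 genes in the table, of which 82 were tested. Of these, 2 were lower in KLRG1-positive cells past the threshold and edgeR called 0 higher, beside 1.21% and 0.125% of all tested genes. The unadjusted p was under 0.05 for 19 lower and 3 higher genes, beside 11.5% and 4.19% of all tested genes. DESeq2 called 18 lower and 2 higher, where it called 9.06% and 2.28% of all tested genes. The median log2 fold change of the 82 was -0.51. By list, 31 of 36 other type I inducible genes and 21 of 24 tested other gamma-inducible genes had negative log2 fold changes, with medians of -0.55 and -0.65. Over all tested genes 53.5% were negative. Ifi27l2a, a small interferon-inducible mitochondrial protein, fell to 19.2, 18.7 and 24.9 CPM in KLRG1-positive libraries, against 87.1, 92.8 and 150 CPM in KLRG1-negative libraries (-2.39 ± 0.30 SE, adjusted p = 0.0333, and 0.0494 with the block). Serping1, the inhibitor of complement C1, fell to 7.54, 2.03 and 0.666 CPM in KLRG1-positive libraries, against 232, 477 and 643 CPM in KLRG1-negative libraries (-7.05 ± 1.06, adjusted p = 0.0454, and 0.104 with the block). Leaving out any 1 library took Ifi27l2a past 0.05 (0.053 to 0.152), and Serping1 was lost without any 1 library (0.0716 to 0.184) other than KLRG1-positive library 1, without which it was 0.0287. Fibroblasts are a known source of Serping1. Both Serping1 and Ifi27l2a had the same order of KLRG1-negative libraries as the summed fibroblast and the summed B cell markers. Other genes of the wider list also had it, among them Ifitm1, Irf5 and Socs3. The part of these cells was not tested. Ms4a4b, also a T cell gene, had the third lowest p among lower genes, at 139 ± 46.5 CPM in KLRG1-positive libraries, against 1250 ± 885 CPM in KLRG1-negative libraries (adjusted p = 0.0617). Of genes with higher KLRG1-positive levels, the 3 with the lowest p did not pass. Lgals3bp, a secreted glycoprotein, averaged 689 ± 134 CPM in KLRG1-positive libraries, against 318 ± 39.6 CPM in KLRG1-negative libraries (1.12 ± 0.20, adjusted p = 0.0599). Tmem173, which encodes the DNA-sensing adaptor STING, stood at 335 ± 40.5 CPM in KLRG1-positive libraries, against 200 ± 33.7 CPM in KLRG1-negative libraries (0.74 ± 0.20, adjusted p = 0.129). Ptpn2, a phosphatase that acts on JAK and STAT proteins, stood at 182 ± 12.8 CPM in KLRG1-positive libraries, against 131 ± 21.1 CPM in KLRG1-negative libraries (0.48 ± 0.19, adjusted p = 0.286). All 3 had separate groups. In the nucleic acid sensing list, which holds Tmem173, 2 of 7 tested genes had separate groups with lower KLRG1-positive levels and 1 with higher levels, beside 15.2% and 9.46% of all tested genes.

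Counted ligand transcripts were scarce. Of 21 interferon ligand genes in the table, 19 had 0 counts in all 6 libraries, among them Ifnb1 and every listed alpha gene. For uniquely mapped reads, this allows up to 0.0508 CPM over the KLRG1-positive and 0.0468 CPM over the KLRG1-negative libraries (3 counts per group, counting error only). Reads that map to several places were left out of the counts. Sequence shared among the ligand genes was not measured, so their levels may be understated. Ifnz had 1, 1 and 5 counts in KLRG1-positive and 2, 2 and 1 counts in KLRG1-negative libraries. Ifng, made by NK cells, ILC1 and T cells, stood at 3.32, 0.107 and 0.488 CPM in KLRG1-positive libraries and at 5.06, 18.1 and 16.8 CPM in KLRG1-negative libraries, with separate groups (-3.35 ± 1.26 SE, adjusted p = 0.27). Library 1 was the highest KLRG1-positive library for Ifng and the lowest KLRG1-negative one.

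In edgeR's test 0 of 8 signal transduction genes and 0 of 4 feedback inhibitors passed. The unadjusted p was under 0.05 for 1 lower gene of the first list, and for 1 lower and 1 higher gene of the second. Over all tested genes this held for 11.5% lower and 4.19% higher. DESeq2 called 1 lower gene in each list, where it called 9.06% of all tested genes lower. The kinase Jak1, used by both receptors, had means of 1268 ± 81.0 CPM in KLRG1-positive libraries, against 1677 ± 639 CPM in KLRG1-negative libraries (adjusted p = 0.596). Tyk2, the partner kinase at the type I receptor, had means of 284 ± 39.1 CPM in KLRG1-positive libraries, against 259 ± 24.1 CPM in KLRG1-negative libraries (adjusted p = 0.82). Jak2, the partner at the interferon gamma receptor, had means of 73.1 ± 32.1 CPM in KLRG1-positive libraries, against 52.5 ± 26.6 CPM in KLRG1-negative libraries (adjusted p = 0.755). The feedback inhibitor Socs1 stood at 0.563, 19.7 and 16.8 CPM in KLRG1-positive libraries and at 4.01, 32.3 and 13.9 CPM in KLRG1-negative libraries (adjusted p = 0.927). Socs1 was lowest in library 1 of both groups, with 10 counts in KLRG1-positive library 1. Irf1 and Igtp were highest in these libraries, and a link with Socs1 was not tested. Other genes, among them Ifngr2 and Socs3, were also lowest in library 1 of both groups. Socs3, another feedback inhibitor, stood at 7.38, 38.5 and 46.4 CPM in KLRG1-positive libraries and at 74.9, 145 and 312 CPM in KLRG1-negative libraries, with separate groups (-2.53 ± 0.81 SE, adjusted p = 0.199 by edgeR, 0.0113 by DESeq2). Irf8, a transcription factor of myeloid and B cells, stood at 28.4, 15.9 and 34.2 CPM in KLRG1-positive libraries and at 65.5, 39.1 and 118 CPM in KLRG1-negative libraries, also separate (-1.50 ± 0.49, adjusted p = 0.206 by edgeR, 0.0385 by DESeq2). For the type III receptor, Ifnlr1 had 15, 13 and 0 counts in KLRG1-positive and 0, 0 and 96 counts in KLRG1-negative libraries, and its partner chain Il10rb had means of 102 ± 4.85 CPM in KLRG1-positive libraries, against 125 ± 13.6 CPM in KLRG1-negative libraries (adjusted p = 0.495).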

How the data were processed

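Per the labels' protocols, RNA of sorted lung ILCs went through SMARTer v4 low-input amplification and into Nextera XT libraries, which do not mark strand. The authors deposited raw counts of reads per gene, made with featureCounts 1.5.2 on Ensembl release 90 models of GRCm38 without strand, per the file headers; multi-mapping alignments, 26.3 to 32.3% per library, were left uncounted. The submitters' processing notes also name bcl2fastq and STAR 2.4.1d. RPKM used the exon length deposited beside the counts. Symbols came from GENCODE M21 of the same build, and all 43 members were found; promoters are RefSeq's (GRCm38.p6), and genes without an entry were not searched.

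Differences were tested from the counts with edgeR 4.0.16 in R 4.3.3 (quasi-likelihood F test, robust, TMM, filterByExpr by group, 15197 genes kept). P-values were 2-sided and Benjamini-Hochberg adjusted over all tested genes, at a threshold of 0.05. In simulated counts the average size of known changes was recovered, also at the spread of these data (biological coefficient of variation 0.63). Calling of changed genes was required only at a much lower spread, so it does not speak for power in these libraries. Fold changes are KLRG1-positive over KLRG1-negative, and SE derives from the F statistic. DESeq2 1.42.0 and limma-voom 3.58.1 were alternatives. Same-numbered libraries deviated together from their group means (correlations across genes of 0.38, 0.34 and 0.19 for numbers 1, 2 and 3), so the numbers were read as pairs, from the data and not the labels. The members and lists were chosen with earlier results of these data known. All members are accounted for; per-library values are given for receptors, members with unadjusted p under 0.05 or separate groups, the 3 most abundant per list and Ifit3 with Ifit3b, and for others, with Socs3 and Irf8 of the wider pathway, chosen after their values were seen. The floors cover counting error only, while SE and SD reflect the spread among libraries. The listed symbol Mb21d1 was matched through RefSeq synonyms. A gene of the pathway is not reported here.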

Additional observations from a re-analysis of the deposited data

How the results depend on the processing

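The direction of the sets was stable and the number of calls was not. The median log2 fold change of the 32 type I inducible genes lay between -1.13 and -0.71 and that of the 4 receptor chains between -0.48 and -0.09 in every fit run. The gamma-inducible median ranged from -1.24 to -0.43 and that of all 43 members from -0.93 to -0.51 in fits with libraries left out, and both moved by less than their spread over pairs in the other fits. Members lower past the threshold numbered 1 in the edgeR test, 14 with DESeq2, 0 with limma-voom, 2 without a low-count filter, 2 with a filter at 1 CPM in 3 libraries, 0 with the replicate block, 13 with DESeq2 and the block (a fit chosen after seeing the data) and 0 to 1 with libraries left out; 0 members were higher in any of these fits. All tested genes higher numbered 19 in the edgeR test, and 346, 0, 37, 0, 609 and 0 to 5 with DESeq2, limma-voom, no filter, the block, DESeq2 with the block and libraries left out; genes lower numbered 184, and 1377, 3, 282, 53, 1697 and 0 to 168. Members at an unadjusted p under 0.05 ranged from 7 to 16 with libraries left out, non-overlapping members lower from 17 to 28 and higher from 0 to 1. With equal group means, Bst2 had no stable sign (-0.00012 with DESeq2, -0.00066 with DESeq2 size factors, -0.024 with library size only, -0.024 with the 1 CPM filter, -0.0037 with the replicate block, -0.0020 with DESeq2 and the block, -0.034 to 0.11 with libraries left out). Signs also turned with libraries left out for Irf1 (-0.87 to 0.11), Gbp7 (-0.59 to 0.15), Ifngr2 (-0.51 to 0.076), Isg20 (-0.38 to 0.057), Rsad2 (-1.38 to 0.32), Parp14 (-0.87 to 0.038), Xaf1 (-0.30 to 0.17), Irgm1 (-0.73 to 0.077) and Eif2ak2 (-0.11 to 0.42), and for Rsad2 with the replicate block (0.086 with edgeR, 0.10 with DESeq2) and with limma-voom. The causes were not tested. Leaving out 1 library leaves 2 against 3, and low counts limit Mx2, Ifi44, Oas2 and Ifit3b.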
